A study of Cricetulus griseus with 6 samples.

Results

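The expression of 7 genes that encode immune adhesion or costimulation molecules was examined in CHO-T cells after *Xbp1* silencing: *Icam1*, *Vcam1*, *Cd80*, *Cd83*, *Cd44*, *Alcam* and *Ncam1*. They were selected by gene symbol, and each of the 7 symbols stood on 1 of the 27873 rows of the RNA-Seq tables. CHO-T cells derive from the established Chinese hamster ovary (CHO) line and were infected with a retrovirus that carries mouse T-cadherin cDNA before selection with puromycin. Cells of both groups carried this transgene and differed in the siRNA, with 3 libraries of negative control siRNA and 3 of a single *Xbp1* siRNA sequence, harvested 48 h after transfection. XBP1 is the transcription factor whose mRNA is spliced by IRE1α under ER stress, and the study silenced it to activate IRE1α. The genes were chosen with the results of this same contrast known, so no p-value is given for them, and how many passed a limit is stated only as a description.

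Adhesion molecules of the immunoglobulin superfamily hold cells together or give leukocytes a grip on other cells. ICAM-1 and VCAM-1 are bound by integrins on leukocytes, and in endothelium and fibroblasts both are classical targets of NF-κB after inflammatory stimuli. CD80 on antigen-presenting cells is bound by CD28 and CTLA-4 on T cells and delivers or withholds the second signal for T cell activation. CD83 is a surface marker of mature dendritic cells. CD44 is the main receptor for hyaluronan and is tied to the actin cortex by ezrin, radixin and moesin. ALCAM is the ligand of CD6 on T cells, and NCAM1 (CD56) mediates homophilic adhesion in neural tissue and marks natural killer cells.

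Levels are given in FPKM, fragments scaled to exon length and to library size, which can be compared between genes. Fold changes are differences in log2(FPKM + 0.1), *Xbp1* siRNA minus control siRNA. The added 0.1 makes the fold changes of weakly expressed genes too small. The tables gave no read totals, but the steps of low FPKM values placed the depth of the libraries between 94.0% and 116% of that of control replicate 1. *Xbp1* itself stood at 26.0, 26.2 and 28.4 FPKM in control libraries and at 2.18, 2.11 and 1.39 FPKM in silenced ones, 7.05% of the control mean. Of 14361 genes tested, those with a mean of at least 0.1 FPKM, 386 were called higher and 359 lower, 5.19% in all; a call needed an adjusted p under 0.05 (limma) together with a log2 fold change of 1 or more in size. The labels name the tissue as ovary, and of the markers of ovarian somatic cells *Fshr* was listed at 0, while *Amh* had 2.69 ± 0.564 and *Inha* 2.63 ± 0.769 FPKM (SD, n = 3) with control siRNA. Of 8 leukocyte markers, 7 were matched. *Ptprc* and *Cd3e* were listed at 0 in all 6 libraries, and the summed level of the list, nearly all from *Cd68*, lay between 5.18 and 6.31 FPKM with control siRNA and between 7.05 and 8.86 with *Xbp1* siRNA. The endothelial markers *Cdh5* and *Tie1* were listed at 0 as well, and that list summed to between 0.417 and 1.19 FPKM over the 6 libraries. Of the 27873 rows, 10274 were listed at 0 in all 6 libraries. Whether such a row lacked expression or was not counted was not tested.

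The 7 genes fell into a group of 4 with mean levels above 50 FPKM and a group of 3 below 1 FPKM. In control cells *Ncam1* had the highest level, followed by *Cd44*, *Alcam* and *Icam1*, and far below them by *Vcam1*, *Cd80* and *Cd83*. The libraries of *Alcam* and *Icam1* overlapped in control cells, as did those of *Vcam1* and *Cd80*. With *Xbp1* siRNA the order became *Ncam1*, *Cd44*, *Icam1*, *Alcam*, *Cd80* and *Vcam1*, with *Cd83* listed at 0. *Icam1* then stood clear of *Alcam* in every library, and *Cd80* and *Vcam1* met at 0.512 FPKM.

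Among the ligands of leukocyte integrins, *Icam1* was abundant and much higher after *Xbp1* silencing. Its level was 61.4, 60.7 and 58.3 FPKM in the control libraries and 208, 201 and 194 FPKM in those with *Xbp1* siRNA. The groups lay far apart, with a spread within each that was small beside the gap. The means were 60.1 ± 1.65 and 201 ± 6.95 FPKM (SD, n = 3 each), a ratio of 3.35 and a log2 fold change of 1.74 (SE 0.04). Ranked by level among the genes tested, *Icam1* was in the top 13.8% in control cells and in the top 2.90% after silencing. No other gene with a mean of at least 50 FPKM, of 2365 tested, had a larger log2 fold change, and of all 14361 genes tested 180 did. This ranking is only a description, since *Icam1* was chosen with the results of this contrast known. Across the alternative settings the log2 fold change of *Icam1* stayed between 1.72 and 1.84.

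*Vcam1* was close to the detection limit. It had 0.131, 0.0698 and 0.0669 FPKM with control siRNA and 0.512, 0.234 and 0.254 FPKM with *Xbp1* siRNA. All libraries with *Xbp1* siRNA lay above those of the control, and replicate 1 was the highest of them. These values fell on whole multiples of a common step, and with 1 step taken as 1 read they correspond to 4, 2 and 2 reads against 16, 7 and 9 reads. Scaled to depth, the ratio of reads was 3.69, with an exact 95% interval of 1.66 to 9.26 that covers counting error only. It makes no allowance for the spread between libraries or for the choice of the gene from this contrast, so it is not a test. The log2 fold change was 1.16 (SE 0.41). It was 0.29 with a pseudocount of 1, 1.76 with a pseudocount of 0.01 and 0.88 without *Xbp1* siRNA replicate 1. Without that library the ratio of reads was 2.73, and it lay between 3.27 and 4.85 without any other.

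*Cd80*, the costimulatory ligand of CD28, was also read from few fragments. Its values were 0.0656, 0 and 0.201 FPKM with control siRNA, or 1, 0 and 3 reads, and 0.512, 0.803 and 0.735 FPKM with *Xbp1* siRNA, or 8, 12 and 13 reads. The groups did not overlap. The ratio of reads scaled to depth was 7.60, with an exact 95% interval of 2.70 to 29.5 for counting error only. As for *Vcam1*, this interval ignores how the gene was chosen and is not a test. Control replicate 3 held 3 of the 4 control reads, and without it the ratio was 20.2 (exact 95% interval 3.38 to 822). Leaving out any other library gave ratios between 5.16 and 8.52. The fitted log2 fold change of 2.18 (SE 0.47) depended on the pseudocount and was 0.63 with 1 and 3.65 with 0.01. *Cd83* was not measurable at this depth: control replicate 3 had 0.0564 FPKM and the other 5 libraries were listed at 0, so it was not tested and no fold change is given.

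**Figure D1:**
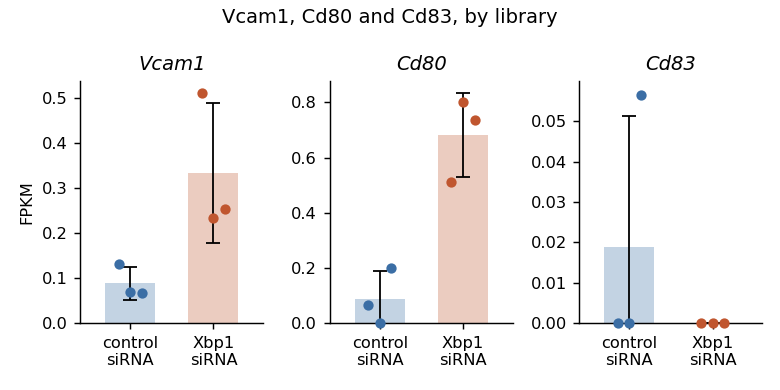
Levels in FPKM (y axis, a separate linear scale for each gene) of *Vcam1*, *Cd80* and *Cd83* by siRNA; points are libraries, bars the mean and whiskers the SD (n = 3). The *Xbp1* siRNA libraries of *Vcam1* and *Cd80* lie above all control libraries, and *Cd83* is above 0 in 1 control library.

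The receptor of hyaluronan, *Cd44*, was abundant in both groups and higher after *Xbp1* silencing. It had 199.7, 204 and 205 FPKM in control libraries and 264, 272 and 271 FPKM with *Xbp1* siRNA. The groups did not overlap, with means of 203 ± 2.89 and 269 ± 4.32 FPKM (SD, n = 3 each). The log2 fold change was 0.41 (SE 0.03), a ratio of means of 1.33 against 3.35 for *Icam1*.

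*Ncam1* was lower after silencing. It had 606, 609 and 604 FPKM with control siRNA, which placed this neural and natural killer cell marker in the top 0.933% of the genes tested, and 401, 404 and 396 FPKM with *Xbp1* siRNA. The libraries of each group lay within a few FPKM of each other and the groups did not overlap. The means were 606 ± 2.04 and 400.4 ± 4.47 FPKM (SD, n = 3 each), so that 66.0% of the control level remained, with a log2 fold change of −0.60 (SE 0.03). Abundant genes as a class were also lower: the 287 genes with at least 300 FPKM in control cells had a median log2 fold change of −0.16, and 49 of them were above 0. After quantile normalization, which makes the distribution of values the same in each library, the log2 fold change of *Ncam1* was −0.36 and that of *Cd44* 0.56.

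*Alcam* differed least among the 4 abundant members. It had 62.3, 62.3 and 59.3 FPKM with control siRNA and 57.1, 55.8 and 57.4 FPKM with *Xbp1* siRNA, so the groups were adjacent but did not overlap. The means of 61.3 ± 1.70 and 56.8 ± 0.827 FPKM (SD, n = 3 each) gave a log2 fold change of −0.11 (SE 0.04), which was −0.05 after quantile normalization.

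**Figure D2:**
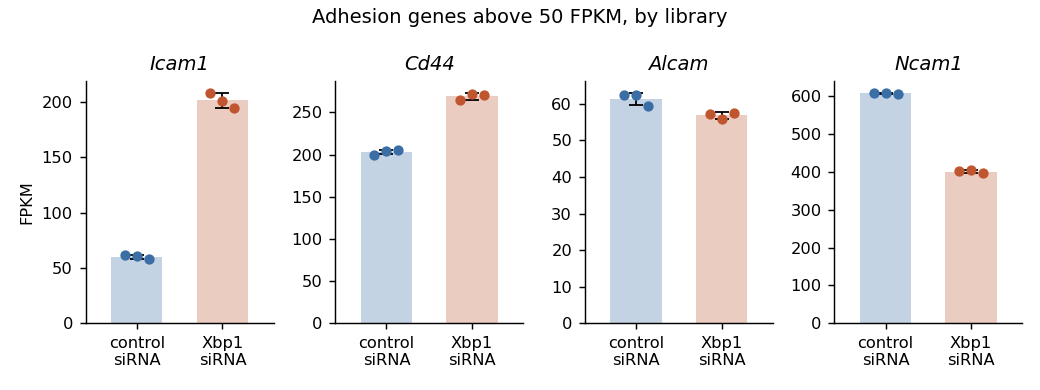
Levels in FPKM (y axis, a separate linear scale from 0 for each gene) of *Icam1*, *Cd44*, *Alcam* and *Ncam1* by siRNA; points are libraries, bars the mean and whiskers the SD (n = 3). *Icam1* and *Cd44* are higher and *Ncam1* and *Alcam* lower with *Xbp1* siRNA, with no overlap between the groups.

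Set against all genes, *Icam1* and *Cd80* met both limits of a call in the higher direction, where 2.69% of all genes tested did. None of the 7 was called lower, where 2.5% of all genes were. By adjusted p alone (limma), 3 of the 6 members tested were higher and 2 lower, where 20.2% of all genes tested were higher and 20.2% lower. *Alcam*, 1 of the 2 lower, did not pass after quantile normalization, with the replicate number as a block, without the intensity trend or in 5 of the 6 fits that left out 1 library. The groups did not overlap for 6 members, 4 of them higher and 2 lower, while 51.8% of all genes tested had groups that did not overlap, 26.1% higher and 25.8% lower. Since this contrast chose the members, nothing is read from these counts.

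The differences of the abundant members nearly cancelled in their sum in the FPKM as deposited, but not after quantile normalization. The summed level of the 7 genes was 931 ± 4.33 FPKM with control siRNA and 928 ± 8.01 FPKM with *Xbp1* siRNA (SD, n = 3 each), and the libraries of the groups overlapped. For the 6 members tested, the sum with *Xbp1* siRNA was 99.7% of control as deposited, 99.5% after median-ratio scaling and 115% after quantile normalization. The last put the libraries at 839, 862 and 856 against 982, 992 and 961 FPKM, without overlap. In the FPKM as deposited, the make-up of the sum differed. *Ncam1* held 65.1% ± 0.0979 of the sum in control cells and 43.1% ± 0.135 after silencing, while *Icam1* held 6.46% ± 0.162 and 21.7% ± 0.618 and *Cd44* 21.8% ± 0.319 and 29.0% ± 0.581 (SD, n = 3 each). *Alcam* held 6.58% ± 0.162 and 6.11% ± 0.134. The level of *Ncam1* was 10.1 ± 0.256 times that of *Icam1* in control cells and 1.99 ± 0.0568 times after silencing (SD, n = 3 each).

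**Figure D3:**
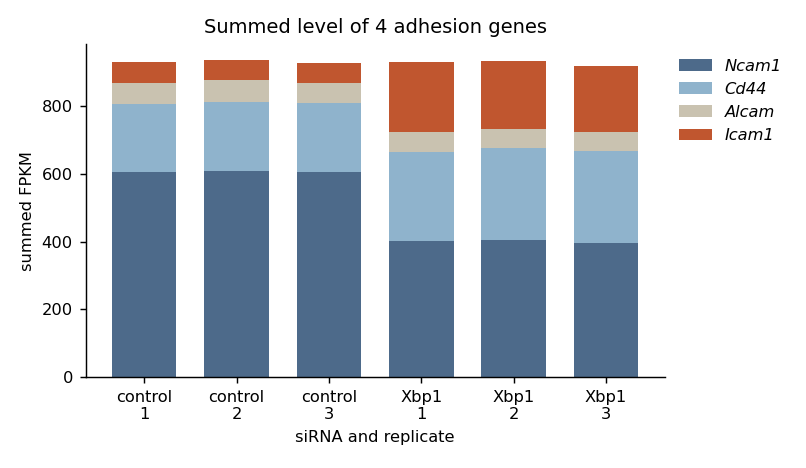
Stacked levels in FPKM (y axis) of *Ncam1*, *Cd44*, *Alcam* and *Icam1* in each of the 6 libraries; *Vcam1*, *Cd80* and *Cd83* are too low to be drawn. In these FPKM as deposited the 7 genes sum to between 919 and 936, while after quantile normalization the sum was 115% of control. The *Icam1* part is larger and the *Ncam1* part smaller with *Xbp1* siRNA.

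Genes that work with these molecules were taken from 10 lists of partner genes, 169 genes in all, of which 146 were matched by symbol and 79 had enough expression to be tested. The lists were chosen with earlier results of these data known, so counts over them are a description, here and in the single lists below. Of the 79 genes, 10 were called higher and 3 lower by the same limits, where 2.69% and 2.5% of all genes tested were. By adjusted p alone, 27 were higher and 15 lower, beside 20.2% of all genes tested in each direction, and 37 did not pass. The median log2 fold change was 0.08, against 0.01 over all genes tested. Of the 13 genes called, 7 had a mean below 1 FPKM and rest on few reads. *Selplg*, *Tnfsf15* and *Cntn2* had control means below 0.1 FPKM and passed the filter only through the *Xbp1* siRNA libraries. The same holds for the members *Vcam1* and *Cd80*.

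Most of the integrins that bind ICAM-1 and VCAM-1 were too low to be tested. *Itgal*, *Itgam*, *Itgb2*, *Itga4*, *Itga9* and *Itgb7* each stayed below 0.1 FPKM in every library, and *Itgax* was listed at 0. *Itgb1*, which pairs with many integrin alpha chains, had 560, 567 and 567 FPKM with control siRNA and 358, 371 and 367 FPKM with *Xbp1* siRNA. It was lower after silencing without overlap between the groups, with a log2 fold change of −0.63 (SE 0.03, adjusted p = 5.61e-06, limma), or −0.41 after quantile normalization. The remaining integrin tested was *Itgae*, which is on the list but does not encode a known receptor of ICAM-1 or VCAM-1. It had 0.0823 ± 0.0667 and 0.137 ± 0.0668 FPKM (SD, n = 3 each) and did not pass (adjusted p = 0.557, limma).

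Of the immunoglobulin-family genes of leukocyte adhesion, 9 were tested, and *Cd47* was the gene called. Over all genes tested, 2.69% were called higher and 2.5% lower. CD47 binds SIRPα on phagocytes and restrains engulfment. It had 1.39, 1.59 and 1.65 FPKM with control siRNA and 6.63, 6.85 and 6.77 FPKM with *Xbp1* siRNA. This rise had a log2 fold change of 2.06 (SE 0.11, adjusted p = 1.43e-05, limma), larger in size than that of *Icam1* from a much lower level. Its receptor gene *Sirpa* had 10.1 ± 0.412 and 10.4 ± 0.913 FPKM (SD, n = 3 each) and did not pass (adjusted p = 0.690, limma). *Bsg*, which encodes basigin, rose from 368 ± 22.4 to 408 ± 10.3 FPKM (SD, n = 3 each) (log2 difference 0.15, adjusted p = 0.0381, limma), and the log2 difference was 0.29 after quantile normalization. Within the ICAM family, *Icam4* did not pass, at −0.08 on the log2 scale (adjusted p = 0.677, limma). *Icam2* was near 0.1 FPKM in both groups, and *Icam5*, named after its values were seen, rose from 2.26 ± 0.0694 to 3.49 ± 0.293 FPKM (SD, n = 3 each; adjusted p = 0.00569, limma).

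Among selectins and their ligands, *Sele*, the gene of E-selectin, was listed at 0 in every library, and *Selp* stayed below 0.1 FPKM. *Selplg*, the gene of the P-selectin ligand PSGL-1, was called higher from 5 reads in the control libraries together and 18 with *Xbp1* siRNA (log2 fold change 1.14, adjusted p = 0.0479, limma). After quantile normalization its adjusted p was 0.0614 (limma), and it stayed called without control replicate 1 but not without any other library. *Glg1*, which encodes a Golgi glycoprotein that binds E-selectin, rose from 40.8 ± 2.46 to 51.3 ± 0.744 FPKM (SD, n = 3 each; adjusted p = 0.00171, limma). *St3gal4*, a sialyltransferase of selectin ligand synthesis, had 22.4 ± 1.74 and 22.1 ± 2.07 FPKM (SD, n = 3 each), and *Cd24* had 0.556 ± 0.0858 and 0.910 ± 0.192 FPKM (SD, n = 3 each; adjusted p = 0.0813, limma).

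Around *Cd80*, 17 of the 22 genes listed were matched by symbol, and *Icosl* was not. The genes of the B7 ligands *Cd86*, *Cd274* and *Pdcd1lg2* were listed at 0 in every library. Of the B7 genes matched, *Cd276*, which encodes the checkpoint ligand B7-H3, was the one with substantial expression. It had 19.6, 18.7 and 18.6 FPKM with control siRNA and 37.9, 35.7 and 33.6 FPKM with *Xbp1* siRNA, without overlap. It rose with a log2 fold change of 0.91 (SE 0.06, adjusted p = 2.38e-05, limma), just short of the fold limit. *Lgals9*, the gene of galectin-9, rose from 17.3 ± 1.01 to 23.7 ± 1.86 FPKM (SD, n = 3 each; adjusted p = 0.00222, limma). *Cd28*, the receptor of CD80, had 4.26 ± 0.311 and 3.30 ± 0.475 FPKM (SD, n = 3 each) and did not pass (adjusted p = 0.0638, limma), though it did after quantile normalization (adjusted p = 0.0292, limma). *Tigit*, an inhibitory receptor of lymphocytes, was called higher from 2, 3 and 1 reads against 8, 12 and 12 reads (log2 fold change 1.89, adjusted p = 0.00412, limma).

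In the TNF family of costimulators, 4 genes were called higher and 1 lower among 8 tested, beside 2.69% and 2.5% of all genes. Since earlier results were known when this list was chosen, nothing is read from the count. With a pseudocount of 1 or a filter at a mean of 1 FPKM, *Tnfrsf9* was the one gene of this list still called. The receptor 4-1BB, encoded by *Tnfrsf9*, had 6.38, 7.32 and 5.10 FPKM with control siRNA and 23.1, 22.5 and 23.6 FPKM with *Xbp1* siRNA. It rose with a log2 fold change of 1.88 (SE 0.12, adjusted p = 3.01e-05, limma). The gene of its ligand, *Tnfsf9*, had 278, 267 and 267 FPKM with control siRNA and 146, 126 and 141 FPKM with *Xbp1* siRNA, and fell by 0.98 on the log2 scale (SE 0.05, adjusted p = 1.56e-05, limma), also just short of the fold limit. Ligand and receptor thus moved in opposite directions, and the ratio of their FPKM went from 44.1 ± 7.88 to 5.97 ± 0.356 (SD, n = 3 each). *Tnfsf4*, the gene of OX40 ligand, rose from 0.407 ± 0.119 to 1.22 ± 0.318 FPKM (SD, n = 3 each; adjusted p = 0.00673, limma), and *Tnfrsf4*, the gene of its receptor OX40, rose from 0.135 ± 0.0660 to 0.506 ± 0.0672 FPKM (SD, n = 3 each; adjusted p = 0.0148, limma). *Tnfsf15*, the ligand TL1A, rose from 8 reads over the control libraries to 60 (log2 fold change 1.74, adjusted p = 0.00491, limma). *Cd27* fell from 15 reads to 4 (log2 fold change −1.36, adjusted p = 0.0237, limma). *Tnfrsf25*, the receptor of TL1A, rose from 0.265 ± 0.0527 to 0.601 ± 0.172 FPKM (SD, n = 3 each; adjusted p = 0.0439, limma), which did not pass after quantile normalization (adjusted p = 0.0558, limma). Without *Xbp1* siRNA replicate 1, *Tnfrsf4* and *Cd27* were no longer called and *Tnfsf9* was; *Cd27* was also lost without control replicate 3 and without *Xbp1* siRNA replicate 3.

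**Figure D4:**
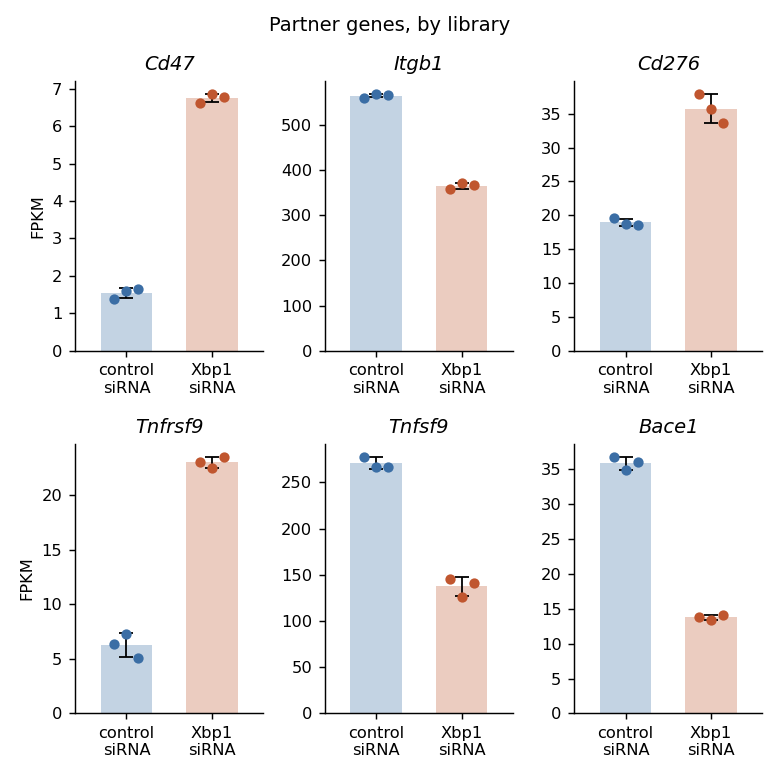
Levels in FPKM (y axis, a separate linear scale from 0 for each gene) of 6 partner genes by siRNA; points are libraries, bars the mean and whiskers the SD (n = 3). *Cd47*, *Cd276* and *Tnfrsf9* are higher and *Itgb1*, *Tnfsf9* and *Bace1* lower with *Xbp1* siRNA, with no overlap.

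Of the genes around CD44, 4 of 17 tested were higher and 7 lower by adjusted p alone, beside 20.2% of all genes in each direction. In each direction 1 was called, beside 2.69% of all genes higher and 2.5% lower. Of the linkers that tie CD44 to actin, *Rdx* fell from 108 ± 8.07 to 81.2 ± 4.50 FPKM (SD, n = 3 each; adjusted p = 0.00187, limma) and *Msn* from 62.2 ± 1.12 to 46.6 ± 0.945 FPKM (SD, n = 3 each; adjusted p = 1.14e-04, limma). *Ezr*, named after its values were seen, fell from 59.0 ± 2.14 to 31.7 ± 0.753 FPKM (SD, n = 3 each; −0.89 on the log2 scale, adjusted p = 7.94e-06, limma). All 3 linkers fell while *Cd44* itself was higher. *Mmp9*, a secreted gelatinase that can dock on CD44, rose from 108 ± 5.26 to 176 ± 9.05 FPKM (SD, n = 3 each; log2 fold change 0.71, adjusted p = 4.41e-05, limma). Among hyaluronan-degrading enzymes, *Hyal3* rose from 0.864 ± 0.303 to 2.79 ± 0.118 FPKM (SD, n = 3 each; adjusted p = 0.00201, limma) and was called, and *Hyal2* rose from 46.5, 43.9 and 42.3 to 50.5, 50.4 and 49.6 FPKM (adjusted p = 0.0140, limma). *Spp1*, which encodes osteopontin, a ligand of CD44 and integrins, fell from 3.99 ± 0.317 to 1.80 ± 0.241 FPKM (SD, n = 3 each; adjusted p = 7.33e-04, limma).

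Of the neural and epithelial adhesion genes related to *Ncam1* and *Alcam*, 16 of 24 matched were below the filter and not tested. Of these, 11 were listed at 0 in all 6 libraries. *Cd6*, the receptor of ALCAM, and *Ncam2*, the paralog of *Ncam1*, were among those listed at 0 in every library. *Epcam*, an epithelial adhesion molecule, was called higher, from 1.94, 1.80 and 1.73 FPKM to 5.44, 4.20 and 4.52 FPKM (log2 fold change 1.32, adjusted p = 2.56e-04, limma). *Epcam* is also on the list of epithelial markers and makes up most of its sum, which lay between 1.83 and 2.16 FPKM with control siRNA and between 4.59 and 5.79 with *Xbp1* siRNA. The other markers measured were *Krt18* and *Krt19*, listed at 0, and *Cdh1*, with 14 reads against 50 (adjusted p = 0.0489, limma), or an adjusted p of 0.0580 (limma) after quantile normalization. The mesenchymal list summed to between 409.8 and 434 FPKM with control siRNA and between 340 and 367 with *Xbp1* siRNA. The part of these markers in the results was not tested. *Cntn2*, a contactin of axons, was called higher from 10 reads against 59 (adjusted p = 0.0354, limma), and after quantile normalization its adjusted p was 0.0544 (limma). It stayed called without control replicate 3 but not without any other library. *Nectin3* fell from 33.1 ± 2.74 to 25.9 ± 1.40 FPKM (SD, n = 3 each; adjusted p = 0.00607, limma). *St8sia4*, a polysialyltransferase that modifies NCAM1, had 1.30 ± 0.384 and 1.75 ± 0.272 FPKM (SD, n = 3 each) and did not pass (adjusted p = 0.192, limma). *Dscam*, a neural adhesion molecule, had 0.398 ± 0.0592 and 0.302 ± 0.0894 FPKM (SD, n = 3 each) and did not pass (adjusted p = 0.440, limma).

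Among the proteases that shed such molecules from the surface and their regulators, 4 genes of 8 tested were higher and 2 lower by adjusted p, beside 20.2% of all genes tested in each direction. *Bace1*, the beta-secretase, had 36.7, 34.9 and 36.0 FPKM with control siRNA and 13.8, 13.4 and 14.1 FPKM with *Xbp1* siRNA. It was the gene called here, beside 2.69% of all genes called higher and 2.5% lower. *Bace1* fell by 1.37 on the log2 scale (SE 0.05, adjusted p = 2.29e-06, limma). *Adam19* fell from 163 ± 2.75 to 111 ± 1.71 FPKM (SD, n = 3 each; adjusted p = 1.54e-05, limma), and *Adam15* rose from 45.1 ± 2.64 to 56.1 ± 2.14 FPKM (SD, n = 3 each; adjusted p = 0.00301, limma). *Adam10*, a sheddase of CD44, had 29.4 ± 2.08 and 33.0 ± 1.01 FPKM (SD, n = 3 each; adjusted p = 0.0668, limma), or an adjusted p of 0.0318 (limma) after quantile normalization. *Adam9* had 47.5 ± 3.20 and 48.6 ± 1.26 FPKM (SD, n = 3 each; adjusted p = 0.660, limma).

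Of the 18 genes on the list of transcription factors known to act on *Icam1* and *Vcam1*, 15 were matched and tested. *Jun*, *Cebpb* and *Klf2* were not matched, so their levels are not known here. None of the 15 was called, where 2.69% of all genes tested were called higher and 2.5% lower. Of 15 tested, 9 had an unadjusted p under 0.05 (limma), as did 48.9% of all genes tested. By adjusted p, 4 were higher and 2 lower, beside 20.2% of all genes in each direction. *Rela*, the p65 subunit of NF-κB, had 110, 111 and 112 FPKM with control siRNA and 163, 153 and 152 FPKM with *Xbp1* siRNA, a rise of 0.49 on the log2 scale (SE 0.04, adjusted p = 5.59e-05, limma). *Nfkb2* rose from 72.3 ± 4.42 to 111 ± 3.44 FPKM (SD, n = 3 each; adjusted p = 9.05e-05, limma). *Ets1* fell from 67.8 ± 1.61 to 61.4 ± 0.993 FPKM (SD, n = 3 each; adjusted p = 0.0157, limma), which did not pass after quantile normalization (adjusted p = 0.138, limma). *Klf4* had 31.0 ± 0.324 and 28.3 ± 1.96 FPKM (SD, n = 3 each; adjusted p = 0.107, limma). In the short list around CD83 and MHC class II, *Cd74* and *Ciita* reached at most 0.1 FPKM, while *Rfx5* had 20.5 ± 1.20 and 20.5 ± 0.850 FPKM (SD, n = 3 each) and *Rfxank* 28.1 ± 0.942 and 29.0 ± 1.99 FPKM (SD, n = 3 each), and neither passed.

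**Figure D5:**
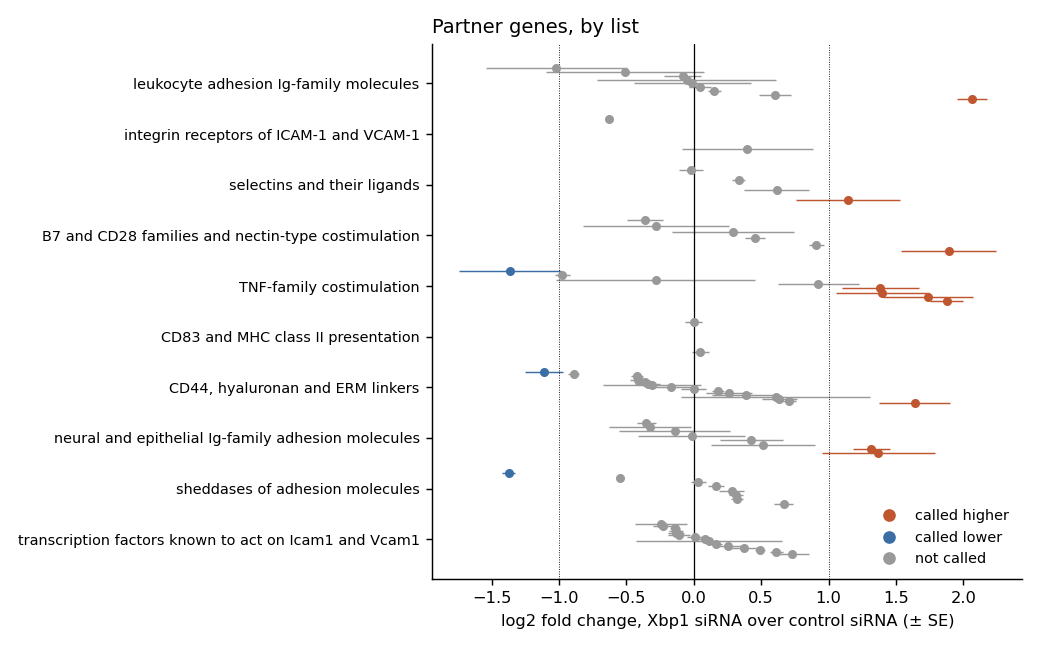
Log2 fold change with its SE (x axis) of each tested partner gene, in rows by list; red points were called higher and blue points lower (limma, both limits of a call, with dotted lines at the fold limit). The 10 genes called higher are spread over 6 lists and the 3 called lower over 3 lists.

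The pattern of *Icam1* over the 6 libraries was compared with that of other genes with a mean of at least 10 FPKM, by the root mean square difference of centred log2 values. The 5 nearest were *Dcn*, *Tfpi*, *Plat*, *Ifi30* and *Actn3*, with differences of 0.061, 0.066, 0.076, 0.086 and 0.098. *Dcn*, which encodes the matrix proteoglycan decorin, went from 6.37 ± 0.416 to 22.2 ± 0.504 FPKM, and *Tfpi*, an inhibitor of coagulation, from 22.5 ± 1.98 to 72.4 ± 2.03 FPKM (SD, n = 3 each). The likeness is a description over 6 libraries, set mainly by the difference between the groups.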

How the data were processed

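Stranded mRNA libraries of CHO-T cells were sequenced on a HiSeq instrument by the authors. The submitters' processing notes name HISAT2 2.1.0 and Cuffdiff 2.2.1; the genome build, annotation and strand setting of the counting are not given in the sources used here, so no coordinates are printed. The authors deposited FPKM values, 1 library per table. Since FPKM values are not counts, the study's DESeq2 test was replaced by limma 3.58.1 (R 4.3.3), with lmFit and eBayes with an intensity trend on log2(FPKM + 0.1) for genes with a mean of at least 0.1 FPKM, adjusted by the Benjamini-Hochberg method over 14361 genes and tested on simulated data. Replicates are separate samples by label. The study describes its results in general as coming from independent biological experiments, but the labels do not tie these libraries to separate cultures, so p-values measure the spread between these samples.

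Low values were expressed in reads where all libraries fell on whole multiples of a common step, within a tolerance of 0.03 steps that widens with their number. A step taken as 1 read is an assumption. Exact (Clopper-Pearson) intervals pooled the reads of the libraries of each group and used scipy 1.17.1 in Python 3.11.15. The 7 genes and the partner and marker lists were chosen with earlier results of these data known. Genes named are the 7 members, *Xbp1*, called partner genes, up to 4 of the most abundant tested genes of each list, markers with a mean of at least 1 FPKM and the 5 genes most like *Icam1*; genes named for being at or near 0, and *Cdh1*, were added after their values were seen, and other exceptions are marked. Of the markers, *Vim*, *S100a4*, *Fn1* and *Pdgfrb*, of the mesenchymal list, had log2 fold changes of −0.31 (−0.18 after quantile normalization), −0.32, 0.83 and −0.65. Alternatives were other pseudocounts, filters, scalings, eBayes without trend, no fold threshold, the replicate number as a block and leaving out each library. The numbers were not taken as pairs. The scaling of the summed level and the read ratios without single libraries were alternatives chosen after seeing the data.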

Additional observations from a re-analysis of the deposited data

How the results depend on the processing

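The log2 fold changes of the 6 members tested kept their direction in the alternatives run. Log2 fold changes of partner genes were compared between scalings only, where *Rfx5* and *St3gal4*, both near 0, turned from −0.00098 to 0.024 and from −0.021 to 0.0064 after quantile normalization. The summed level of the members, recomputed after seeing the data, went from 99.7% to 115% of control in that setting. Quantile normalization gave 309 higher and 376 lower calls over all genes, with 8 and 3 among partner genes. With a pseudocount of 1, calls numbered 114 higher and 205 lower over all genes, 1 (*Icam1*) of the 7 adhesion and costimulation genes, and 4 partner genes higher and 1 lower (*Cd47*, *Epcam*, *Hyal3*, *Tnfrsf9* and *Bace1*). Requiring a mean of 1 FPKM left 11610 genes to test, with 242 called higher, among them 1 of the 7 genes (*Icam1*) and 4 partner genes. If no fold limit was set, all genes gave 2898 higher and 2904 lower calls, the partner genes 27 and 15, and 2 of the 7 genes (*Ncam1* and *Alcam*) were lower. When libraries were left out singly, calls ran from 329 to 380 higher and from 346 to 369 lower, with 2 of the 7 genes higher each time, and 7 to 9 partner genes higher and 2 to 3 lower. *Vcam1*, not called in the main analysis, met both limits in 2 of its 14 alternatives, with no filter on low values and without the intensity trend. Its log2 fold change was below 1 with a pseudocount of 1 (0.29) and without *Xbp1* siRNA replicate 1 (0.88). A fit with replicate number as block term gave 363 higher and 353 lower calls, with 8 and 2 among partner genes, where *Selplg*, *Cntn2* and *Cd27* were no longer called. Same-numbered libraries did not deviate together (r across genes of −0.029, −0.027 and −0.012), so the number was not used for pairing. Depth limits *Vcam1*, *Cd80*, *Cd83* and partner genes below 1 FPKM.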

Other observations

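The genes next to the 7 adhesion and costimulation genes, 2 on each side in the order of a RefSeq assembly of the Chinese hamster, were looked up after the data had been seen, since *Icam1*, *Icam4* and *Icam5* stand side by side there. Of 28 neighbours, 27 were matched and 22 tested, and 2 were called higher and 0 lower, beside 2.69% and 2.5% of all genes tested. *S1pr2*, a sphingosine 1-phosphate receptor located before *Icam1* beyond *Mrpl4*, had 18.5, 19.8 and 22.3 FPKM with control siRNA and 46.3, 45.0 and 42.7 FPKM with *Xbp1* siRNA (log2 fold change 1.15, adjusted p = 2.80e-05, limma). *Mrpl4*, between them, had 118 ± 8.61 and 123 ± 4.56 FPKM (SD, n = 3 each; adjusted p = 0.403, limma). On the other side *Icam4*, the gene next to *Icam1*, had 11.1 ± 2.07 and 10.4 ± 1.02 FPKM (SD, n = 3 each). The second neighbour called was *Extl2*, a glycosyltransferase gene beside *Vcam1*, with 13.5 ± 1.72 and 41.5 ± 2.59 FPKM (SD, n = 3 each; log2 fold change 1.62, adjusted p = 2.18e-05, limma). By adjusted p alone, 8 neighbours were higher and 3 lower, where 20.2% of all genes tested were higher and 20.2% lower.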
